A study of Mus musculus with 3 samples.

Results

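The whole transcriptome of a heart section from a mouse given SBP before ischemia/reperfusion (I/R) was compared with that of a section from a mouse given vehicle before the same injury. All spots with 200 or more detected genes were kept, which left 1960 spots in the SBP section and 2082 in the I/R section, together 4042 of the 6276 spots kept over all 3 sections of the series. Of 32285 genes listed, 11059 had 100 or more unique molecular identifiers (UMIs, each standing for 1 captured RNA molecule) over both sections and were tested. SBP is MUSKARDIA, the Shexiang Baoxin Pill, a traditional Chinese medicine given for coronary disease. Every mouse was C57BL/6 and was gavaged for 7 days before surgery.

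The I/R mouse received vehicle, then had its left anterior descending coronary artery (LAD) tied for 30 min and reopened for 24 h. The SBP mouse received MUSKARDIA and the same ligation and reperfusion. The sham mouse received vehicle and had the needle passed without a ligature, so its section gives the level without ischemia. The mice were supplied at 8 weeks of age. Each condition is 1 section of a piece of 1 heart. The effect of SBP, the size of the infarct in each piece and the difference between any pair of mice therefore cannot be told apart, and the intervals below cover counting error only.

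After ischemia and reperfusion, heart muscle in the territory of the artery dies, and its debris draws neutrophils and then monocytes, while fibroblasts and vessel cells at the border switch on matrix and growth genes. Surviving cardiomyocytes near the border re-express fetal genes such as natriuretic peptides and lose part of their oxidative program. RNA captured on a Visium array comes from spots that cover several cells, so fewer cells of a type and less RNA per cell cannot be told apart in these sums.

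The SBP section held 21631280 UMIs and the I/R section 30238530, with a median of 10652 and 14672 UMIs per spot. Genes of the mitochondrial genome took 46.3% of UMIs in SBP, 44.3% in I/R and 48.6% in sham. Each section had strong heart muscle signal: the 6 cardiomyocyte markers summed to 23143 CPM (counts for each 1000000 UMIs of the section) in SBP, 20289 in I/R and 26526 in sham. The sections used the same array layout, and 1205 position barcodes occurred in both sections, which is 61.5% of SBP spots and 57.9% of I/R spots. A shared barcode is an array position and not a shared cell.

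A gene was called when its CPM differed at least 1.5-fold between the sections, which is 0.58 on the log2 scale, and the 95% interval of the ratio lay beyond 0. By this rule 156 genes were higher in SBP (1.41% of genes tested) and 1341 were lower (12.1%), or 8.6 lower calls for each higher call. The median log2 ratio of SBP over I/R over all genes tested was -0.16, a ratio of 0.893, with the middle 50% of genes between -0.39 and 0.04. The middle of the distribution lay below 0, so each gene and list is best read against this median, and the count of a list against the 1.41% and 12.1% of all genes. TMM scaling (the trimmed mean of log ratios) centres the genes near 0, and centring on it moves every ratio up by the same amount. Without the mitochondrial genes the median was -0.11, with 207 genes higher (1.87%) and 1110 lower (10.0%). Measured around the median of all genes, 387 genes were higher (3.50%) and 763 lower (6.90%), so that higher calls made up 33.7% of calls in place of 10.4%.

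**Figure D1:**
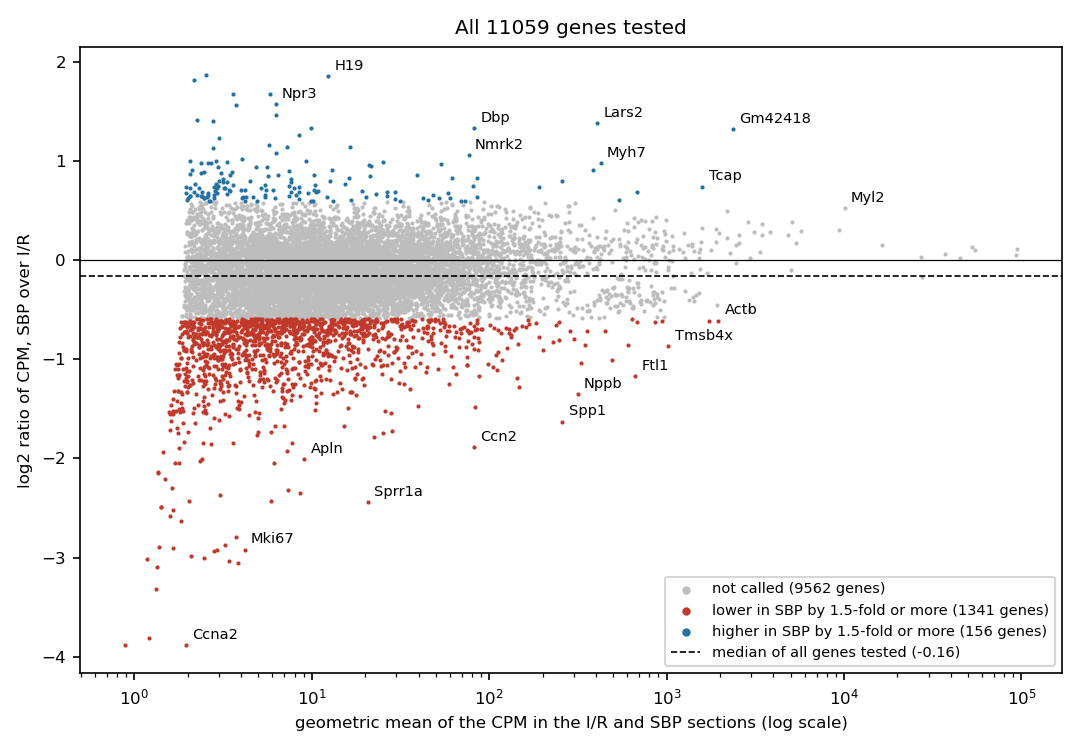
Each point is 1 of the 11059 genes tested, with the geometric mean of its CPM in the I/R and SBP sections on the horizontal axis (log scale) and the log2 ratio of SBP over I/R on the vertical axis. The 1341 genes called lower reach -3.88 (Ccna2), the 156 called higher stay under 2, and the dashed line marks the median of all genes at -0.16.

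The lower calls were more frequent among genes of low level. Of the 987 genes with a mean under 3 CPM, 29% were called lower, against 8.27% of the 3628 genes between 10 and 30 CPM and 6.39% of the 720 genes between 100 and 1000 CPM. The median ratio moved the same way, from -0.29 in the lowest class to -0.06 between 100 and 1000 CPM and 0.09 in the 74 genes above 1000 CPM (among them Myl2, Myh6, Atp5b and Cox4i1). A gene of low level can pass the minimum of 100 UMIs through the section where it is high, and the I/R section was the deeper one. Of 212 long non-coding genes 7.08% were called higher and 16% lower, and of 10841 protein-coding genes 1.3% and 12%.

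Where in the sections the genes differed was examined with a list of 15 injury genes (among them Spp1, Timp1, Tgfbi, Fn1, S100a8 and Postn). A spot was said to carry injury signal when the summed CPM of the list passed 683, a level that 10% of sham spots exceed. By this measure 48.7% of I/R spots carried injury signal and 30.2% of SBP spots. In the other spots, 1069 of I/R and 1369 of SBP, the balance turned: of 9282 genes tested there without the injury list, 279 were higher in SBP (3.01%) and 102 lower (1.10%), with a median log2 ratio of 0.08. In the spots with injury signal 177 of 9553 genes were higher (1.85%) and 1181 lower (12.4%), with a median of -0.20. The count of a list in either class of spots is best read against the shares of that class. Spots were sorted by genes that themselves differ between the sections, so part of the smaller ratios outside the injured spots follows from the sorting. Between all spots and the spots without injury signal, 29 of 56 lists with 10 or more genes tested in both changed the sign of their median, 23 of them from below to above 0. Over whole sections a smaller share of spots with injury signal and lower levels inside such spots stood side by side. All 15 genes of the injury list were called lower in SBP, so the smaller share restates the sorting genes and is not a separate result. How far the sorting enters the levels inside such spots was not tested. The gene lists used below share members, for example Fn1 and Spp1 (monocyte and matrix lists) or H19 and Vwf.

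**Figure D2:**
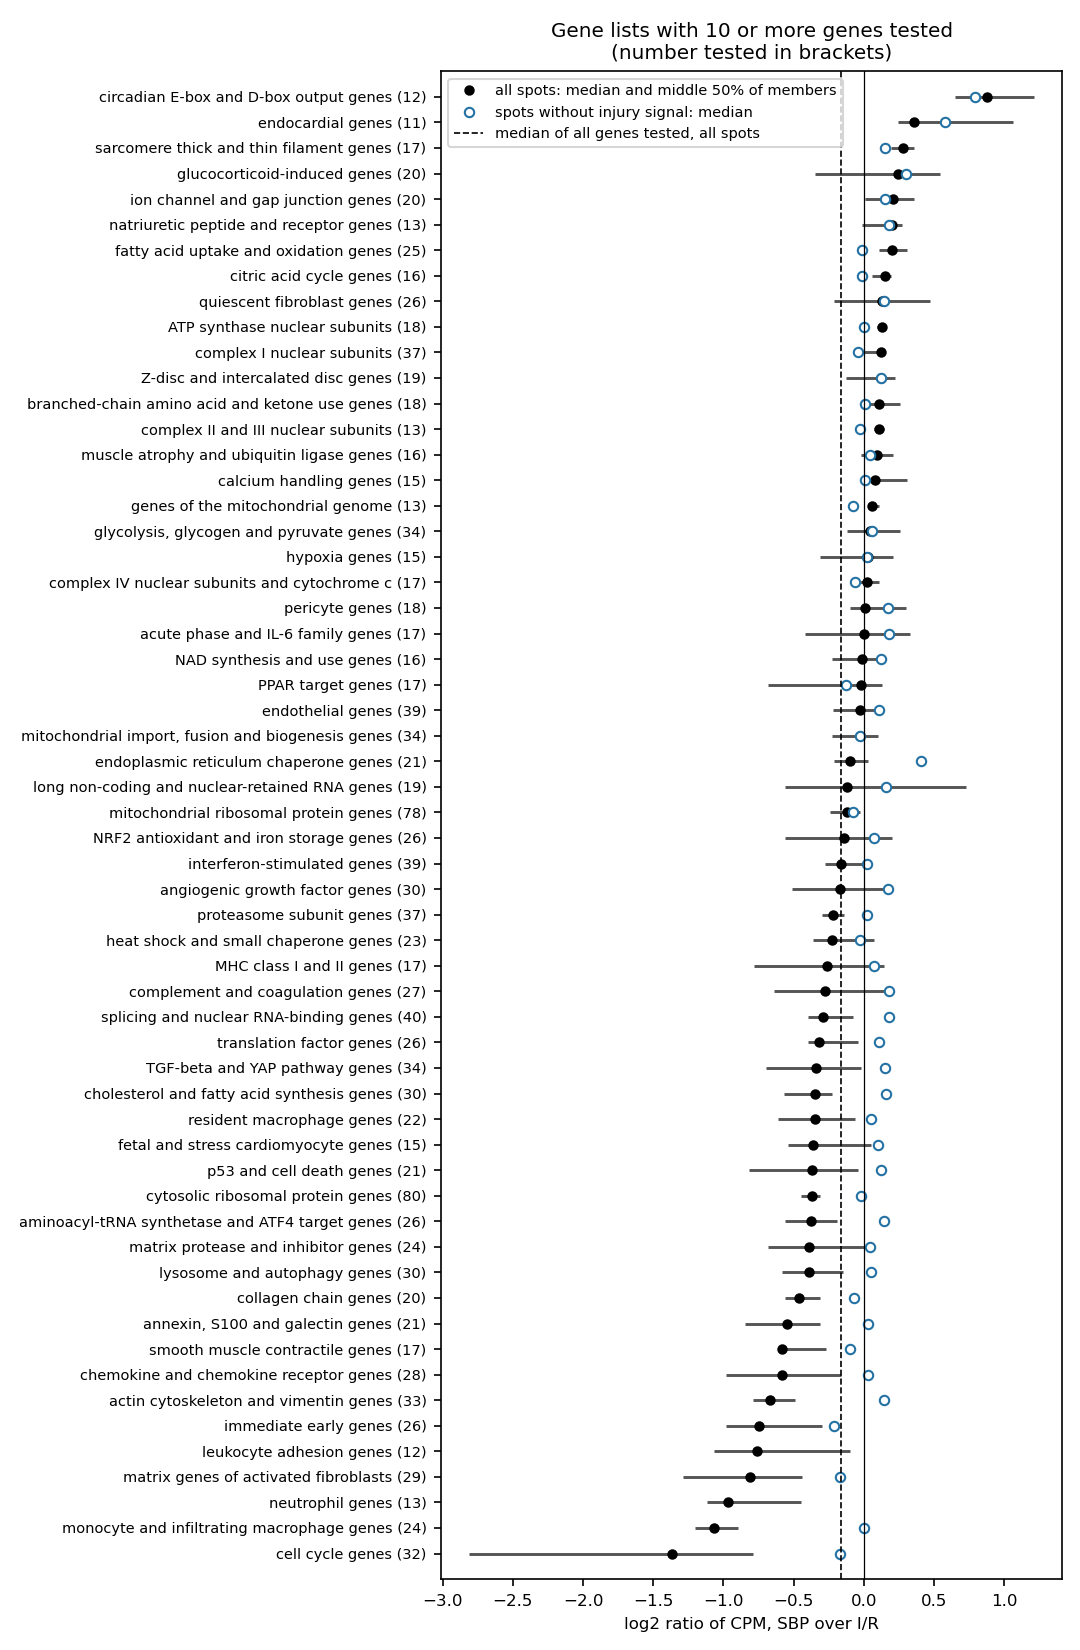
Each row is a gene list with 10 or more genes tested, and the horizontal axis is the log2 ratio of SBP over I/R. Black dots and bars give the median and the middle 50% of members over all spots, open circles the median in spots without injury signal (lists with 10 or more genes tested there), and the dashed line the median of all genes (-0.16). The circadian output list sits highest at 0.88 and stays at 0.79 in the spots without injury signal. The monocyte list has a median of -1.07 for 24 genes over all spots. For the 11 of them that could be tested in spots without injury signal the median is 0.00.

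Of the lists with 10 or more genes tested, that of dividing cells had the lowest median. Of 36 genes of DNA replication and mitosis, 32 were tested, 26 were called lower in SBP and none higher, with a median of -1.37. The list summed to 656 CPM in SBP, 988 in I/R and 664 in sham, a smaller log2 ratio of -0.59 for SBP over I/R. Cks2, a cofactor of cyclin-dependent kinases, stood at 1.34 CPM in SBP, 11.1 in I/R and 3.86 in sham, a log2 ratio of -3.05 (95% interval -3.65 to -2.50). Mki67, the Ki-67 antigen of cycling cells, stood at 1.53, 11.5 and 4.82 CPM in the same order, with a ratio of -2.92 (-3.48 to -2.40). Ccna2, cyclin A2, had 226 UMIs in I/R, 85 in sham and 11 in SBP, a ratio of -3.88 (-4.90 to -3.01). For these 3 genes the SBP section was the lowest of the 3 sections. The sum of the whole list in SBP was near its sham level. Each of these 3 genes passed the minimum of 100 UMIs through the I/R section alone, and genes that enter this way weigh on the median of the list.

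The rest of the list was spread more widely. Top2a, the topoisomerase of mitosis, was at 1.02 CPM in SBP and 7.74 in I/R (-2.93), while Cdk1, the kinase that starts mitosis, had 26 and 266 UMIs (-2.87). Both passed the minimum of 100 UMIs through the I/R section alone. The replication clamp Pcna was at 35.7 CPM in SBP, 64.8 in I/R and 31.6 in sham (-0.86), and the helicase subunit Mcm6 at 10.5, 26.4 and 8.88 (-1.33). The 6 helicase subunits Mcm2 to Mcm7 ran from -1.44 (Mcm5) to -0.96 (Mcm7), closer to 0 than Top2a and Cdk1. Ccnd2, cyclin D2, was not called and was the highest of the list at 0.38, with 71.5 CPM in SBP and 54.8 in I/R. These genes were seen in few spots: after thinning each spot to 6500 UMIs, Mki67 was seen in 0.744% of SBP spots, 6.6% of I/R spots and 2.66% of sham spots. The 1% of spots with the most Mki67 held 66.7% of its UMIs in SBP and 19.8% in I/R. In the spots with injury signal 24 of 30 genes tested were lower (median -1.28), and in the other spots 1 of the 18 that could still be tested was (median -0.17). The genes with the largest falls were mostly below the minimum in those other spots. There Cks2 stood at 0.651 CPM in SBP and 1.88 in I/R, and Ccna2 at 0.13 and 1.88, so the median leaves such genes out.

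**Figure D3:**
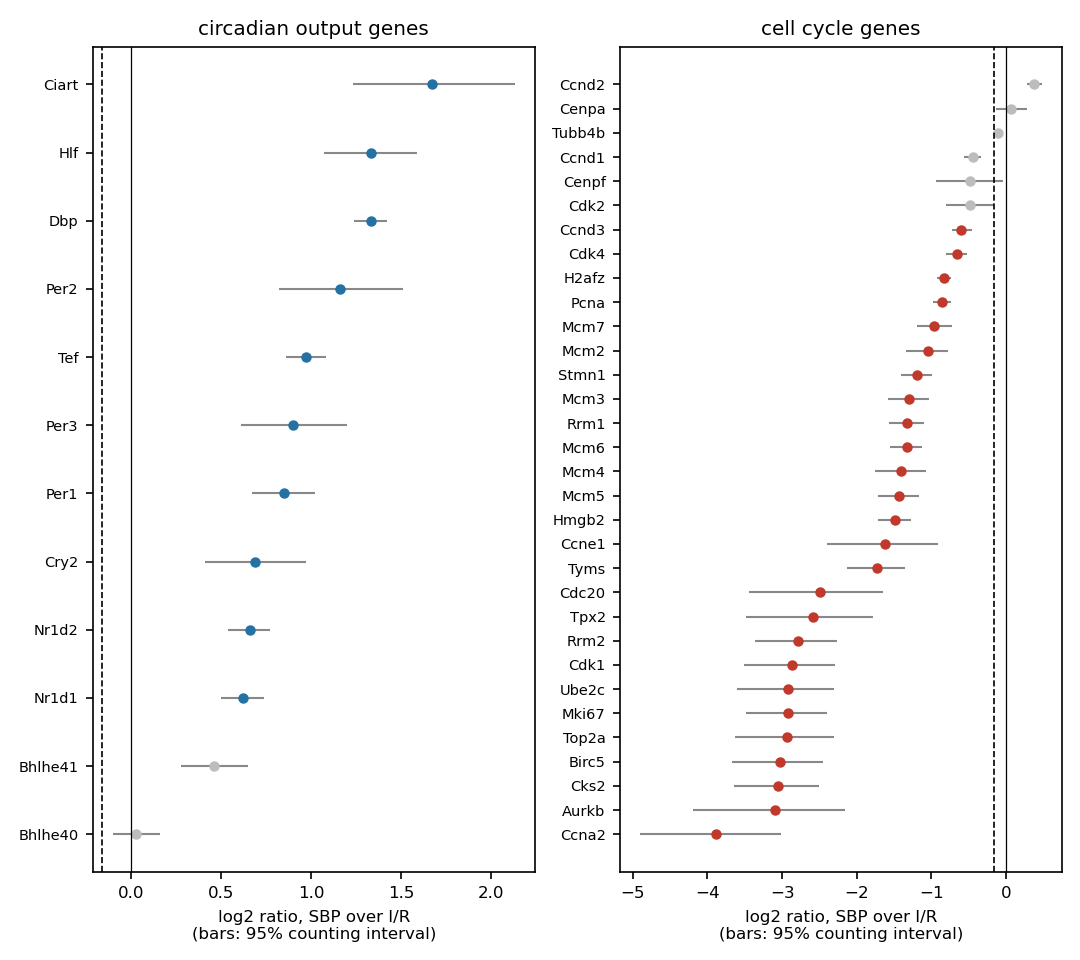
Each point is a tested gene of the circadian output list (left) or the cell cycle list (right), placed at its log2 ratio of SBP over I/R with the 95% counting interval. Blue points were called higher, red points lower and grey points neither; the dashed line is the median of all genes. Of the circadian genes 10 of 12 lie past the threshold on the high side, and of the cell cycle genes 26 of 32 on the low side.

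The circadian output genes moved the other way. Cells keep time through a loop in which the factors CLOCK and BMAL1 bind E-boxes and switch on Per, Cry, Rev-erb and the PAR bZIP factors, and the PAR bZIP factors in turn act on D-boxes. Of 12 output genes tested, 10 were called higher in SBP and none lower, with a median of 0.88. Dbp, a PAR bZIP factor, stood at 131 CPM in SBP, 52.1 in I/R and 74.2 in sham, a ratio of 1.33 (1.24 to 1.42). Hlf, of the same family, had 15.7, 6.25 and 8.80 CPM (1.33, interval 1.07 to 1.59), and Ciart, a repressor of the loop, had 139 UMIs in SBP, 61 in I/R and 77 in sham (1.67, interval 1.23 to 2.13). Ciart passed the UMI minimum for testing through the SBP section alone. The SBP section was the highest of the 3 for Dbp, Hlf and Ciart.

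The other members spread between these and 0. Per2 had a ratio of 1.16, Tef of 0.97, Per3 of 0.90, Per1 of 0.85, and Nr1d1, which encodes Rev-erb alpha, of 0.62, at 52.7 CPM in SBP, 34.3 in I/R and 48.2 in sham. Cry2 and Nr1d2 were also called higher (0.69 and 0.66), while Bhlhe40 (0.03) and Bhlhe41 were not. Of the 5 tested genes that Rev-erb represses, 2 were lower and none higher: Arntl, which encodes BMAL1, had 15 UMIs in SBP, 120 in I/R and 76 in sham (-2.52, interval -3.40 to -1.74), and Clock 8.41, 13.6 and 10.5 CPM (-0.70). None of the 4 that could be tested in spots without injury signal was called (median 0.01). Arntl was not among them, as it was below the minimum there, at 0.586 CPM in SBP and 2.43 in I/R. Over all spots Arntl passed the minimum of 100 UMIs through the I/R section alone. In the spots without injury signal 8 of the 12 output genes were still called higher, with a median of 0.79, and in those with injury signal 9 of 11, with a median of 0.95. The hour at which each heart was taken is not given in the sources used here, and its part in these values was not tested.

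The 3 promoter stretches below are shown because their genes rose and hold sequences through which the clock is known to act. Each is the 250 bases before a RefSeq start (GRCm38.p6), read 5′ to 3′ on the strand of the gene, with E-boxes (CACGTG) or D-boxes (TTATGTAA) in capitals. Ciart lies on the minus strand at chr3:95882229-95882478, with matches beginning 116, 58 and 44 bases before the start. Tef lies on the plus strand at chr15:81802423-81802672, with a match 127 bases before it, and Per3 on the minus strand at chr4:151044666-151044915, with matches at 205 and 158.
Ciart: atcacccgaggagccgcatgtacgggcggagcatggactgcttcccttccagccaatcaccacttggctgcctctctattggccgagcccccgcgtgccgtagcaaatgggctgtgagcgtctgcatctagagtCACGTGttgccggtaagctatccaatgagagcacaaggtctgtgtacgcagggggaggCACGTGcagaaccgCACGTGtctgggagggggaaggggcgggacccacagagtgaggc
Tef: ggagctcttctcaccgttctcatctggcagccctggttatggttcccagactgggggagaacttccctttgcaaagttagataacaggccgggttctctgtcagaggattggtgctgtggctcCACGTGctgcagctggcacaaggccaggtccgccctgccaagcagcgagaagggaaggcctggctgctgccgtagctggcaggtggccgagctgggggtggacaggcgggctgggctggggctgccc
Per3: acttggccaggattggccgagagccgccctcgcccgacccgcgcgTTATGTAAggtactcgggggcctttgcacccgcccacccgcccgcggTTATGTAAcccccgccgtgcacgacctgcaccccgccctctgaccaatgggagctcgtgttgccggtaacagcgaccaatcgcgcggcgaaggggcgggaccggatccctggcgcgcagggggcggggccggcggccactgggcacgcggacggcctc

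Promoter windows, from 250 bases before to 50 after a start, were found for 10 of the 12 output genes. An E-box on either strand lay in the windows of 4 of them (Bhlhe41, Ciart, Per1 and Tef), in 5 of 12 windows, against 7.15% of all 32851 mouse promoter windows. A D-box lay in 1 of the 12 windows, that of Per3, against 0.938% of all windows. The list was made of genes known as targets through these sequences, so its higher shares follow from how it was chosen. A match describes the letters only, and the windows of Dbp and Hlf held neither sequence although both genes rose.

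Genes of infiltrating myeloid cells were lower in SBP nearly throughout. Of 24 monocyte and infiltrating macrophage genes, all tested, 21 were called lower and none higher, with a median of -1.07, and their sum was 916 CPM in SBP, 1984 in I/R and 585 in sham. Ccr2, the receptor that brings monocytes from blood, stood at 15.3 CPM in SBP, 43.9 in I/R and 10.9 in sham (-1.52, interval -1.70 to -1.34). Spp1, osteopontin, which macrophages of the infarct secrete, stood at 147, 456 and 107 CPM (-1.63, interval -1.69 to -1.57). Arg1, the arginase of alternatively activated macrophages, stood at 16.4, 47.5 and 3.74 CPM (-1.54). Most of the list was at or above its sham level in SBP and further above it in I/R.

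Neutrophil genes and chemokines followed. Of 13 neutrophil genes tested 9 were lower and none higher (median -0.97). Csf3r, the receptor for the neutrophil growth factor G-CSF, had 183 UMIs in SBP, 816 in I/R and 113 in sham (-1.67). S100a8, a subunit of calprotectin, was at 51.8, 108 and 10.2 CPM (-1.06, interval -1.16 to -0.96). Lcn2, lipocalin 2, which has the most UMIs of the list and which other cells also make under stress, lay on the other side with 2654 UMIs in SBP, 2553 in the deeper I/R and 1855 in sham (0.54, interval 0.46 to 0.62, not called), and at 1.01 in spots with injury signal. There 2 of 10 neutrophil genes tested were higher and 4 lower (median -0.40). Of 28 chemokine and receptor genes 14 were lower and 1 higher (median -0.58). Ccl2, which attracts monocytes, was at 58.6 CPM in SBP, 132 in I/R and 29.3 in sham (-1.17), and Ccl6 at 95.5, 218 and 49.7 (-1.19). The gene called higher was Cxcl2, at 0.67, and without the 1% of spots with the most Cxcl2 its ratio was -0.30.

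**Figure D4:**
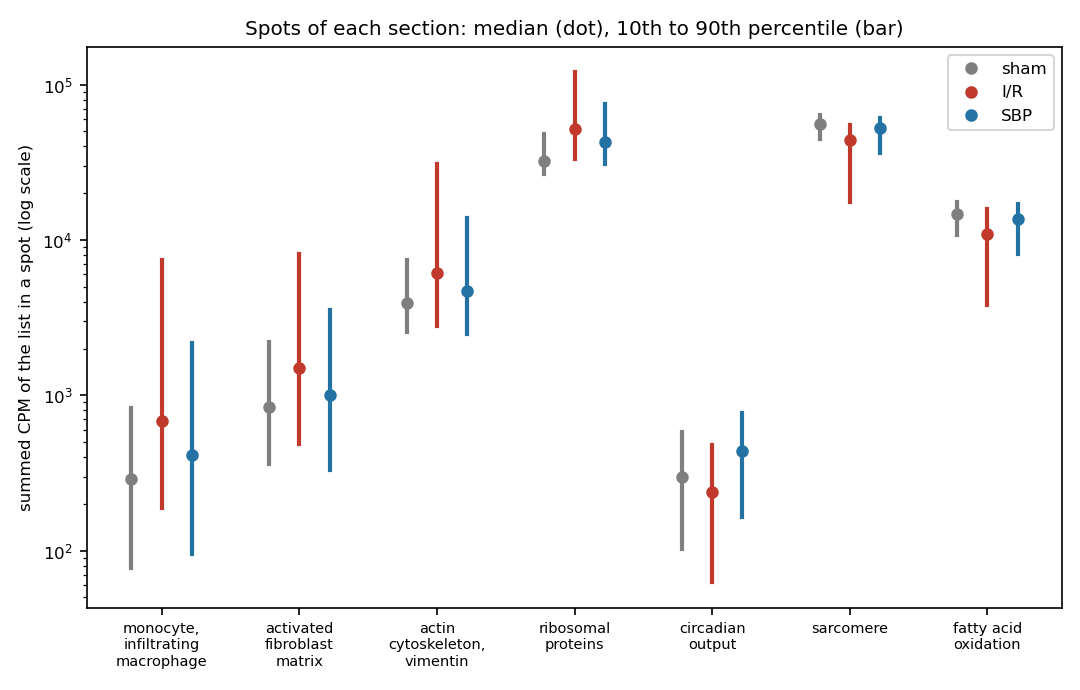
For each section and 7 gene lists, the dot is the median and the bar the range from the 10th to the 90th percentile over spots of the summed CPM of the list in a spot (log scale). The upper ends of the monocyte, matrix and actin lists are highest in I/R, and the lower ends of the sarcomere and fatty acid lists are lowest there.

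The gap was wider in the upper tail of spots. The monocyte list took a median of 412 CPM per spot in SBP and 685 in I/R, a smaller gap than that between the 90th percentiles of 2186 and 7462, while sham had 291 and 824. In the spots with injury signal 9 of 18 genes tested were lower (median -0.58), and in the other spots none of 11 was called (median 0.00). Resident macrophage genes differed less: of 22 tested 6 were lower and none higher (median -0.35). Pf4, a chemokine that resident macrophages make, was among the 6, at 68.6 CPM in SBP, 142 in I/R and 63.3 in sham (-1.05), while C1qb, a complement subunit of macrophages, was at 140, 180 and 144 (-0.37) and was not called.

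Markers of the cell types that a section can hold were also read. All 3 monocyte markers (Ccr2, Vcan and Cd14) were lower, summing to 39.9 CPM in SBP, 85.9 in I/R and 30.1 in sham. The neutrophil markers summed to 60.9, 136 and 15.2 CPM, and the macrophage markers to 162, 219 and 166. The 6 cardiomyocyte markers lay between -0.10 and 0.38 with none called, the fibroblast markers Dcn, Col1a2, Pdgfra and Fbln1 between -0.51 and 0.59 with Fbln1 called higher, and 3 of the 4 endothelial markers (Pecam1, Cdh5 and Kdr) were not called, while the fourth, Npr3, was higher. Of the 4 smooth muscle and pericyte markers Myh11 was called lower (-0.61), while Notch3, Pdgfrb and Cspg4 lay between -0.13 and -0.07 and were not called. T cell and B cell markers were near 0 in every section, at 0.878 and 0.601 CPM in SBP and 0.728 and 1.39 CPM in I/R. How far such shifts in cell content enter the lists below was not tested.

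Genes of antigen presentation went both ways. Of 17 MHC genes tested 6 were lower and 2 higher (median -0.26). The 6 were class II genes or their chaperones, among them H2-Aa, at 40.8 CPM in SBP, 77.3 in I/R and 45.1 in sham (-0.92), and Cd74, the invariant chain, at 101, 173 and 110 (-0.78). Both genes called higher, H2-Q6 and H2-Q7, are of class I, and H2-Q7 had 13.2 CPM in SBP, 8.04 in I/R and 4.66 in sham (0.71). B2m, the light chain of class I, was not called, at 271 CPM in SBP, 336 in I/R and 240 in sham (-0.31). The H2-Q genes are close copies of each other, and reads that fit several of them can be counted for either or for none. Interferon-stimulated genes were near the median of all genes, with 1 of 39 lower and none higher (median -0.16).

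Matrix genes of activated fibroblasts were the next large group. Of 29 tested 18 were lower in SBP and none higher, with a median of -0.81, and the list summed to 1542 CPM in SBP, 2632 in I/R and 1264 in sham. Fn1, fibronectin, stood at 94.2 CPM in SBP, 229 in I/R and 50.4 in sham (-1.28, interval -1.36 to -1.21). Tgfbi, a matrix protein that TGF-beta induces, stood at 72.6, 153 and 28.5 CPM (-1.08), and Postn, periostin, at 24.0, 66.3 and 27.9 CPM (-1.47). Postn stood slightly below sham in SBP, and Fn1 and Tgfbi above it. All 3 of these genes belong to the injury list by which spots were sorted. Without that list, 9 of 20 matrix genes tested in spots with injury signal were lower (median -0.46), against 12.4% of all genes there. In the other spots 2 of 14 were lower (median -0.17), against 1.10% of all genes there.

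The list of TGF-beta and YAP genes, which holds both pathway members and genes they induce, showed the same direction. Of 34 genes of the TGF-beta and YAP pathways 12 were lower and none higher (median -0.34), led by Inhba, which encodes activin A, at 2.54 CPM in SBP, 13.7 in I/R and 1.19 in sham (-2.43). Inhba, with 55 UMIs in SBP and 415 in I/R, passed the minimum of 100 UMIs through I/R alone. Ccn2, the connective tissue growth factor that TGF-beta and YAP induce, had the largest fall of any gene at 100 CPM or more: 42.7 CPM in SBP, 158 in I/R and 28.2 in sham (-1.89, interval -1.99 to -1.79). Within the spots with injury signal Inhba and Ccn2 had ratios of -2.56 and -1.66, and Ccn2 was among the genes by which those spots were chosen. In spots without injury signal 2 of 28 genes of the list were higher and 2 lower, with a median of 0.15. Of all genes there 3.01% were higher and 1.10% lower.

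The collagens differed less than the matrix of activation. Of 20 chains tested 5 were lower (25% against 12.1% of all genes) and none higher (median -0.46). With TMM scaling 3 chains were lower, and with median-of-ratios scaling 2. Col3a1 was at 172 CPM in SBP, 304 in I/R and 280 in sham (-0.83), and Col1a1 at 109, 156 and 171 (-0.52) without being called, so that both stood below sham in SBP. Genes of quiescent fibroblasts ran against this, with 3 of 26 higher and 1 lower (median 0.13), and 10 higher and none lower with TMM scaling. Gsn, gelsolin, which fibroblasts express strongly, was at 864 CPM in SBP, 534 in I/R and 823 in sham (0.69, interval 0.66 to 0.72), Fbln1 at 85.2, 56.4 and 107 (0.59), and Clec3b had 526, 454 and 944 UMIs in sections of different depth (0.70). The tissue inhibitors of metalloproteinases parted: Timp1 was lower, at 188, 329 and 68.2 CPM (-0.81), and Timp3 higher, at 82.6, 46.5 and 66.0 CPM (0.83).

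Genes of the actin cytoskeleton came next. Of 33 actin, tubulin and vimentin genes 21 were lower (11 with TMM scaling) and none higher (median -0.67), and their sum was 6322 CPM in SBP, 10007 in I/R and 4996 in sham. Tmsb4x, the actin-binding thymosin beta 4, was at 756 CPM in SBP, 1382 in I/R and 627 in sham (-0.87). Vim, vimentin, was at 257, 468 and 168 CPM (-0.86, interval -0.91 to -0.82), and Actb at 1584, 2422 and 1185 (-0.61). In the spots without injury signal the list had a median of 0.14 with none of 33 called, and Actb a ratio of 0.25. Of 17 smooth muscle genes 8 were also called lower (4 with TMM scaling) and none higher (median -0.58). The sum of that list differed little, at 3796 CPM in SBP, 4021 in I/R and 3911 in sham. Acta2, smooth muscle actin, was at 83.0 CPM in SBP, 168 in I/R and 254 in sham (-1.01), below sham in both injured sections, and the 1% of spots with the most Acta2 held about equal shares of it, 33.3% in SBP and 34.6% in I/R.

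Immediate early genes, which cells switch on within minutes of a stimulus, were lower as well. Of 26 tested 16 were lower and none higher (median -0.75). Fos was at 3.28 CPM in SBP, 16.4 in I/R and 2.91 in sham (-2.32, interval -2.70 to -1.96), and Egr1 at 10.0, 21.3 and 9.79 (-1.09). Both were at about the sham level in SBP. Fos, with 71 UMIs in SBP and 497 in I/R, passed the minimum of 100 UMIs through I/R alone. Some immediate early genes stayed lower in spots without injury signal, Fos at -1.95 and Egr1 at -1.13. Of 22 tested there 6 were called lower (median -0.21), against 1.10% of all genes in those spots. Of 21 genes of the p53 and cell death list 10 were lower and none higher (median -0.37), among them the pore regulator Bax, at 27.0 CPM in SBP, 43.0 in I/R and 20.9 in sham (-0.67), and the necroptosis kinase Ripk3, at 2.73, 5.56 and 1.95 (-1.03). Ripk3 passed the minimum of 100 UMIs through I/R alone. Outside the spots with injury signal 2 of 15 genes of the list were higher and 1 lower (median 0.12), against 3.01% and 1.10% of all genes there.

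Genes of oxidative stress and iron storage were mixed. Of 26 tested 7 were lower and none higher (median -0.14). Ftl1, ferritin light chain, was at 444 CPM in SBP, 997 in I/R and 279 in sham (-1.17, interval -1.20 to -1.13), and Hmox1, heme oxygenase 1, at 22.8, 56.1 and 13.7 (-1.30). Nqo1, a classical NRF2 target, was at 0.47 and was not called. Ferritin light chain has near-identical copies in the mouse genome, so its level is uncertain. Lysosome genes had 8 of 30 lower (26.7% against 12.1% of all genes) and none higher (median -0.39). The largest fall was that of Ctss, cathepsin S of antigen-presenting cells, at 38.4 CPM in SBP, 91.3 in I/R and 31.8 in sham (-1.25). With TMM scaling 3 of the 30 were lower and 1 higher, against 774 and 377 of all 11059 genes. In spots without injury signal none of the 30 was called (median 0.05).

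Genes of protein synthesis lay lower by small amounts. The 80 cytosolic ribosomal protein genes summed to 48202 CPM in SBP, 62308 in I/R and 36541 in sham, with a median ratio of -0.37. Of the 80, 5 were called, all lower, which is 6.25% against 12.1% of all genes, and none was called with TMM or median-of-ratios scaling. The 5 included Rpl41, at 1408 CPM in SBP, 2157 in I/R and 983 in sham (-0.61), and Rps12, at 765, 1164 and 546 (-0.61). Ribosomal protein genes have many processed copies, and reads may be split between them. Per spot the sum ran from 30810 (10th percentile) to 74807 CPM (90th) in SBP and from 33028 to 119814 in I/R. In spots without injury signal the median of the list was -0.02. Of 26 translation factors 2 were lower (7.69%) and none higher (median -0.32), while Eef1a2, the elongation factor form of muscle, was at 1005 CPM in SBP and 747 in I/R (0.43, not called) and Eef1a1, that of other cells, at 796 and 1179 (-0.57, not called).

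Chaperones of the endoplasmic reticulum differed with the choice of spots. Over all spots none of 21 was higher and 1 was lower (median -0.10). In spots without injury signal 7 of 21 were higher (against 3.01% of all genes there) and none lower, with a median of 0.41. Hspa5, the chaperone BiP, was at 519 CPM in SBP, 456 in I/R and 277 in sham over all spots (0.19), with a ratio of 0.71 in spots without injury signal. Manf, a secreted stress factor, went from -0.21 to 0.59 and Creld2 from -0.43 to 0.65. Heat shock and small chaperone genes were lower in 2 of 23, or 8.7% against 12.1% of all genes, and higher in none (median -0.23), with Hspb1 at 349 CPM in SBP, 573 in I/R and 209 in sham (-0.72).

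Genes of contraction were above the median of all genes. None of 17 was called over all spots, while 2 were higher with TMM scaling and 2 in spots with injury signal. The 18 genes of the thick and thin filaments summed to 50251 CPM in SBP, 40900 in I/R and 54251 in sham, and the median of the 17 tested was 0.28. Myl2, the ventricular regulatory light chain, had the largest gain in level of any nuclear gene: 12055 CPM in SBP, 8417 in I/R and 12116 in sham (0.52, interval 0.51 to 0.53, and 0.68 with TMM scaling). Tnni3, cardiac troponin I, was at 5831, 4494 and 6464 CPM (0.38). Actc1, cardiac actin, was at 4872, 5212 and 6678 CPM (-0.10), on the other side of 0. In spots without injury signal none of the 17 was called, with a median of 0.15 against 0.08 for all genes there. Myl2, Tnni3 and Actc1 had ratios of 0.33, 0.16 and -0.17 in those spots. Of the Z-disc genes 1 of 19 was higher, Tcap (telethonin), at 2060 CPM in SBP, 1229 in I/R and 1928 in sham (0.74, interval 0.72 to 0.76). The lower end of the sarcomere list over spots was 36362 CPM in SBP, 17624 in I/R and 44766 in sham, a wider gap than that of the medians of 52869, 43883 and 56160.

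Genes of the fetal and stressed heart muscle lay mostly lower, with members on both sides. Of 15 tested 4 were lower (26.7% against 12.1% of all genes) and 2 higher (13.3% against 1.41%), with a median of -0.36. Of the 15, 11 had ratios below 0. The list summed to 6920 CPM in SBP, 8161 in I/R and 4151 in sham (-0.24). Nppb, the natriuretic peptide BNP, was at 198 CPM in SBP, 505 in I/R and 124 in sham (-1.35, interval -1.40 to -1.31), and Xirp2, a protein of the intercalated disc, at 229, 469 and 146 (-1.04). Myh7, the slow fetal myosin heavy chain, was at 596 CPM in SBP, 302 in I/R and 100 in sham (0.98, interval 0.94 to 1.02), and Nmrk2, a nicotinamide riboside kinase induced in stressed muscle, at 111, 53.1 and 12.5 (1.06, interval 0.97 to 1.15). All 4 of these genes stood above sham in both injured sections. Nppa, the atrial peptide ANP, was at 1380, 1146 and 458 CPM (0.27), not called over all spots and at 0.97 in spots without injury signal. In those spots Nppb stood at -0.84, Myh7 at 1.21 and Nmrk2 at 1.56. Ankrd1, a stress-responsive ankyrin repeat protein, was at 1367, 1715 and 879 CPM (-0.33) and was not called.

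**Figure D5:**
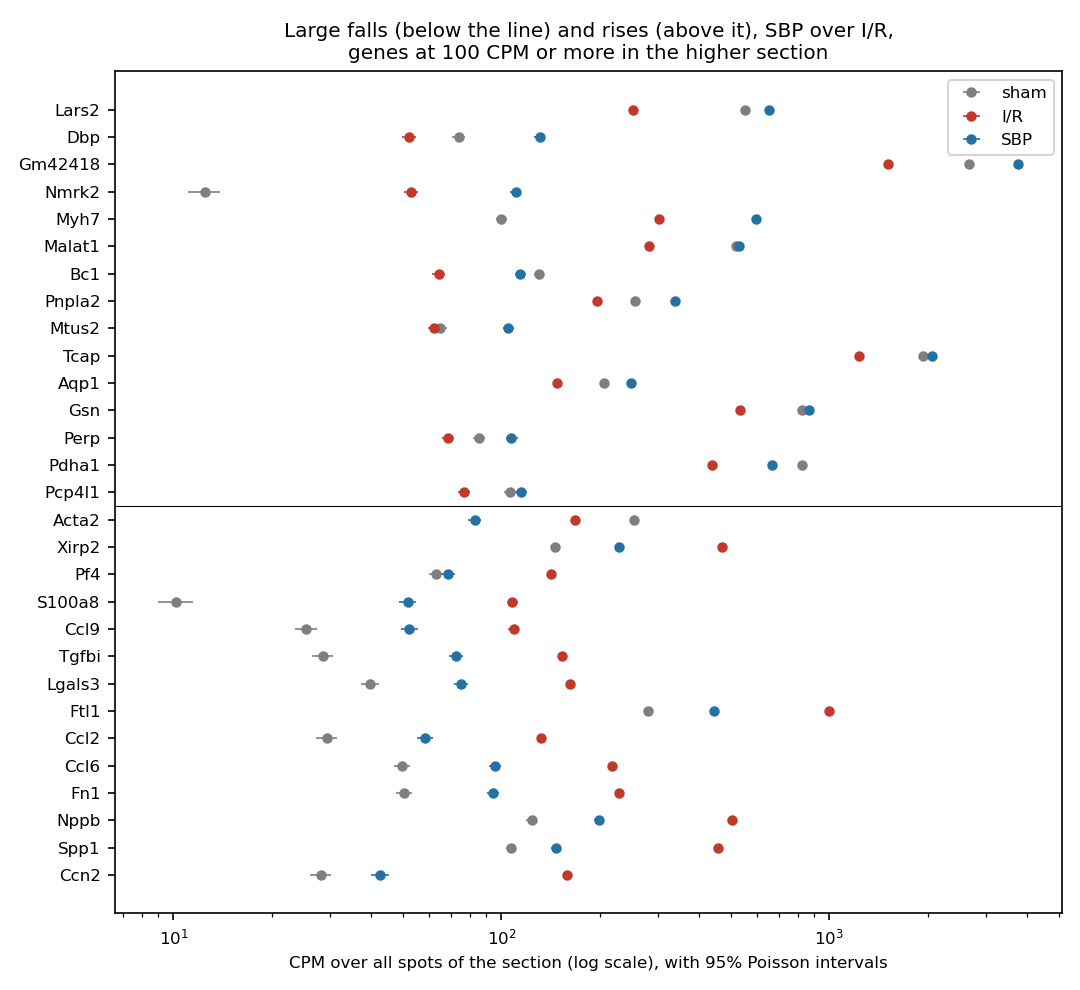
CPM of the 15 genes with the largest rises (above the line) and of 14 of the 15 with the largest falls (below it) among genes at 100 CPM or more in the higher section, in sham (grey), I/R (red) and SBP (blue), with 95% Poisson intervals on a log axis. For the 14 falls drawn the SBP point lies between sham and I/R in every gene but Acta2, where it lies below both. Of the 15 rises 14 pass the 1.5-fold threshold, and Pcp4l1 does not.

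Energy metabolism differed little per gene. Among the nuclear subunits of complexes I to IV and ATP synthase the list medians ran from 0.02 to 0.13, and 1 gene was called, Cox6b2, a testis form of low level (0.94). The 13 mitochondrial genes lay between -0.17 and 0.15. Fatty acid uptake and oxidation genes had a median of 0.20 with none of 25 called (2 higher with TMM scaling), and summed to 13038 CPM in SBP, 10621 in I/R and 14070 in sham. Lpl, lipoprotein lipase, was at 2585 CPM in SBP, 1846 in I/R and 2628 in sham (0.49), and Hadha, of the beta-oxidation cycle, at 759, 566 and 747 (0.42). In spots without injury signal the median of the fatty acid list was -0.01. Pdha1, a subunit of pyruvate dehydrogenase, was called higher, at 666, 438 and 823 CPM (0.60), and Pnpla2, the lipase that opens fat stores, at 339, 195 and 256 (0.80, interval 0.75 to 0.85).

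The targets of PPAR did not move together. Of 17 tested 5 were lower and 2 higher (median -0.02). Pdk4, the kinase that shuts pyruvate dehydrogenase, was at 12.0 CPM in SBP, 21.5 in I/R and 41.1 in sham (-0.84), and the uncoupling protein Ucp3 at 2.50, 4.37 and 8.88 (-0.81). Both were lowest in SBP. Angptl4, an inhibitor of lipoprotein lipase, was at 11.1, 28.4 and 7.64 CPM (-1.36). In spots without injury signal Pdk4, Ucp3 and Angptl4 had similar ratios of -0.89, -0.90 and -0.85, against a median of 0.08 for all genes there. Over all spots Ucp3 passed the minimum of 100 UMIs through I/R alone. Among glycolytic genes 3 of 34 were lower, or 8.82% against 12.1% of all genes, and Pdha1 was higher (median 0.04). Eno1, the enolase of non-muscle cells, was at 29.7, 64.9 and 13.9 CPM (-1.13). Gapdh was at 1239, 1645 and 1116 CPM (-0.41).

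Endothelial and endocardial genes went both ways. Of 39 endothelial genes tested 2 were higher (5.13% against 1.41% of all genes) and 4 lower (10.3% against 12.1%), with a median of -0.03. Vwf, von Willebrand factor, was at 52.7 CPM in SBP, 29.0 in I/R and 37.1 in sham (0.86), and Aqp1, the water channel of capillaries, at 248, 148 and 205 (0.74). Cldn5, claudin 5 of tight junctions, was at 18.3, 38.1 and 26.4 CPM (-1.06), and Apln, the peptide apelin of sprouting tip cells, at 4.53, 18.3 and 6.61 (-2.01, interval -2.34 to -1.70). Apln, with 98 UMIs in SBP and 553 in I/R, passed the minimum of 100 UMIs through I/R alone. Of 11 endocardial genes 4 were higher (Npr3, Cytl1, Vwf and H19) and 1 lower (Vim, which other cell types also express), with a median of 0.36. Vwf is also in the endothelial list and H19 in that of long non-coding RNAs. The sum of the endocardial list, which Vim enters, went the other way, at 468 CPM in SBP, 603 in I/R and 318 in sham (-0.36). Npr3, the natriuretic peptide clearance receptor, was at 10.8 CPM in SBP, 3.64 in I/R and 5.29 in sham (1.57, interval 1.24 to 1.91). Npr3 rests on 234 UMIs in SBP and 110 in I/R, and the 1% of spots with the most of it held 34.6% and 37.3% of these UMIs. In spots without injury signal 5 of the 11 endocardial genes were higher (median 0.58), against 3.01% of all genes there.

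Among genes between 10 and 100 CPM the largest rise was that of H19, an imprinted non-coding RNA, at 23.5 CPM in SBP, 6.51 in I/R and 10.2 in sham (1.85, interval 1.61 to 2.10). Its neighbour Igf2, the insulin-like growth factor 2, had 527 UMIs in SBP, 334 in I/R and 438 in sham (1.14, interval 0.94 to 1.34). H19 was concentrated: the 1% of spots with the most UMIs held 40.9% of them in SBP and 49.7% in I/R, against 28.8% and 25.4% for Igf2. The retinoic acid hydroxylase Cyp26b1 (1.67), the alcohol dehydrogenase Adh1 (1.46) and the cytokine-like Cytl1 (1.26) were also among the 8 largest rises, each at 10.4 to 13.1 CPM in SBP. Cyp26b1, with 225 UMIs in SBP and 99 in I/R, passed the minimum of 100 UMIs through SBP alone. The largest falls of this class after Cks2 and Mki67 were those of Sprr1a, a small proline-rich protein of stressed cardiomyocytes, at 8.88, 48.1 and 6.33 CPM (-2.44), and Inhba.

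Several RNAs that stay in the nucleus or stem from ribosomal DNA were high in SBP, and so was Lars2, which is annotated as protein-coding. Malat1, a nuclear non-coding RNA, was at 530 CPM in SBP, 282 in I/R and 519 in sham (0.91, interval 0.87 to 0.95). Gm42418, an annotation that overlaps ribosomal RNA repeats, was at 3758, 1505 and 2670 CPM (1.32), and Lars2, which encodes the mitochondrial leucyl-tRNA synthetase, at 656, 252 and 554 (1.38, interval 1.34 to 1.42). AY036118, another annotation over ribosomal repeats, had 139 UMIs in SBP, 66 in I/R and 110 in sham (1.56). It passed the minimum of 100 UMIs through SBP alone. In these genes I/R was the low section, and sham lay near or below SBP. Of the 19 genes in the list of long non-coding and nuclear-retained RNAs 5 were higher and 5 lower (median -0.12). The 5 lower ones were Dancr, Mir22hg and the small nucleolar RNA hosts Snhg1, Snhg12 and Snhg8, with Snhg1 at 8.69, 18.2 and 9.59 CPM (-1.07). Dancr, with 66 UMIs in SBP and 194 in I/R, passed the minimum of 100 UMIs through I/R alone. Gm42418 alone gained 2253 CPM, and these rises were present in both classes of spot: 1.53 for Gm42418 and 1.13 for Malat1 without injury signal, 1.01 and 0.73 with it. No measure of RNA quality is in the sources used here, and its part in these values was not tested.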

How the data were processed

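RNA of 3 heart sections (sham, I/R and SBP) was captured on Visium arrays. Raw counts, as UMIs of each gene in each spot, were deposited. The submitters' processing notes name Space Ranger 1.3.0 and mm10, whereas the study's methods name another version and a human reference; the gene identifiers are mouse. The single-nucleus data were not analysed here.

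Spots with 200 or more detected genes were kept and their counts summed per section, divided by all UMIs and given as CPM. Genes with 100 or more UMIs over I/R and SBP were tested. Ratios carry 95% intervals from the exact conditional binomial test and levels carry exact Poisson intervals. These cover counting error only, as each condition is 1 section, so no p-value was computed. A call needed a 1.5-fold ratio and an interval beyond 0, a rule tested on simulated data. The sham section entered no ratio and is shown beside the others, since both comparisons would share I/R.

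Alternatives were other denominators (without mitochondrial genes, TMM by edgeR 4.0.16 in R 4.3.3, median-of-ratios), equal weight for each spot, other filters, thinning to 6500 UMIs, other thresholds, and spots without injury signal. Spots with injury signal were added after the data were seen. Fits and plots used scipy 1.17.1, numpy 2.4.6, matplotlib 3.10.9 and pandas 2.3.3 in Python 3.11.15.

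The comparison and the gene lists were chosen with earlier results of these data known. Genes named by rule were the 15 largest rises and falls at 100 CPM or more, the 8 largest of each between 10 and 100 CPM, the 8 largest gains and losses in CPM, the member of each list with the most UMIs, the largest rise and the largest fall, Nppb, Npr3, Vim, Acta2 and Ankrd1, and all cell type markers. Every other gene named was chosen after its values were seen, as were the 3 promoters. Promoter motifs were not compared between called and other genes, since RefSeq windows matched only 73.7% of genes called higher and 77.9% of those called lower. Some genes are not reported here.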

Additional observations from a re-analysis of the deposited data

How the results depend on the processing

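With 1 section for each condition, the counts of calls depended on the scaling and on the spots used. The numbers called higher and lower were 377 and 774 with TMM scaling (median log2 ratio of all genes -0.01), 387 and 763 with median-of-ratios scaling (0.00), 387 and 763 around the median, 279 and 102 in spots without injury signal (0.08), 54 and 516 among genes with 500 or more UMIs, 25 and 376 at 2-fold, and 1307 and 4495 with an interval beyond 0 at any size. Without mitochondrial genes, with equal weight for each spot, with no spot filter, with a minimum of 1000 UMIs, after thinning, among genes with 50 or more UMIs and in spots with injury signal, both counts stayed within 1.5 times those reported. In spots without injury signal 29 of 56 list medians changed sign, among them TGF-beta and YAP (0.15), p53 and cell death (0.12), translation factors (0.11), fetal and stress genes (0.10), lysosome (0.05), resident macrophage (0.05) and chemokine genes (0.03). Among lists whose median was past 1.5-fold, it turned to 0.16 for neutrophil genes, of which only 3 of 13 could be tested there. It turned to 0.00 for monocyte and infiltrating macrophage genes (11 of 24 tested there) and 0.51 for lymphocyte genes (1 gene tested there). These medians rest on fewer genes than those over all spots, so they do not show that the whole lists turned. The median turned to 0.14 for actin cytoskeleton genes, 0.08 for macrophage markers and 0.00 for monocyte markers. There the ratio of Actb was 0.25, Ccl9 0.00, Cd14 0.08, Ctsb 0.05, Edem1 0.05, Eif1a 0.30, Ms4a7 0.08, Snrpd1 0.02 and Vcan 0.00. Leaving out the top 1% of spots for the gene gave Cxcl2 a ratio of -0.30, and could not give a value for Actg2, Arntl, Ccl17, Ccna2, Col12a1 and Fosl1. The cause was not tested. No paired analysis was possible because every group is a lone section.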
